A study of Homo sapiens with 9 samples.

Results

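The genes described here are the protein-coding zinc finger genes of human chromosome 19 that carry a ZNF number as their symbol and were transcribed in A549 cells, an established line from a human lung adenocarcinoma. Members were gene rows on chromosome 19 with an Ensembl ID of a protein-coding gene, a symbol of ZNF and a number, and at least 90 counts summed over all 9 libraries. The rule was met by 154 of 247 such coding genes, out of 61552 gene rows with an Ensembl ID, and each of the 154 entered the tests below. Members were thus chosen by their summed count, which takes all groups together, so how many genes of a cluster reached it is a description and carries no test.

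RNA was sequenced from A549 cells treated for 96 h in 3 groups of 3 libraries. STS_apoEV cells received vesicles from apoptosis induced with staurosporine, a broad inhibitor of protein kinases. DDP_apoEV cells received vesicles from apoptosis induced with cisplatin, a platinum drug that crosslinks DNA. Control cells received PBS, so vesicle contents and the remains of either drug cannot be told apart in the contrasts with control. The labels do not say which cells shed the vesicles, nor whether replicates were grown as separate cultures, so p-values measure a spread between libraries that may be technical. An epithelial origin was checked by the genes KRT8, KRT18, KRT7 and EPCAM, which cannot tell A549 from other epithelial lines. They summed to 7246 to 8589 CPM (counts scaled to library size) in STS_apoEV, 6956 to 7450 in DDP_apoEV and 11170 to 12318 in control. Leukocyte, endothelial, fibroblast and hepatocyte lists each stayed between 0 and 4.33 in all libraries.

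Most zinc finger proteins of this family bind DNA through tandem C2H2 fingers, each of which reads a few bases, and many also carry a KRAB domain at the other end. The KRAB domain recruits the corepressor TRIM28 (KAP1), which brings in the histone methyltransferase SETDB1, heterochromatin proteins and the NuRD complex, so that the bound site is marked with H3K9me3 and silenced. The family grew by tandem duplication, which left its genes in clusters along chromosome 19, and many of its members bind and silence retrotransposons.

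The promoters of 4 members on which the results turn are printed first, as the 300 bases from 250 before to 50 after the RefSeq transcription start (GRCh38.p14, plus strand, 5′ to 3′). They were chosen after the values were seen, because ZNF551 and ZNF544 moved in opposite directions with the 2 kinds of vesicle, ZNF331 had the smallest p of the falls with STS_apoEV, and ZNF224 rose with STS_apoEV. Capitals mark an ETS-type motif (CCGGAAG or, on the other strand, CTTCCGG), a YY1 motif (CCGCCAT on this strand) and an element with the letters CTACANTTC (GAANTGTAG on the other strand), which is known as a site of ZNF143 and THAP11 and was chosen for the search after promoters had been read. The windows lie at chr19:57681727-57682026, chr19:58228664-58228963, chr19:53520764-53521063 and chr19:44094111-44094410 in the order printed.
ZNF551: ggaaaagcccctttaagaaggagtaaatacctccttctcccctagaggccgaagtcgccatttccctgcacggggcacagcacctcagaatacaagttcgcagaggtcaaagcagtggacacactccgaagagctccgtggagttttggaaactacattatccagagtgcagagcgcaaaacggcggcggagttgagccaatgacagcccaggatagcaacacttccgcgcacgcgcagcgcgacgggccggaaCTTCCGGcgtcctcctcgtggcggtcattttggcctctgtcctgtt
ZNF544: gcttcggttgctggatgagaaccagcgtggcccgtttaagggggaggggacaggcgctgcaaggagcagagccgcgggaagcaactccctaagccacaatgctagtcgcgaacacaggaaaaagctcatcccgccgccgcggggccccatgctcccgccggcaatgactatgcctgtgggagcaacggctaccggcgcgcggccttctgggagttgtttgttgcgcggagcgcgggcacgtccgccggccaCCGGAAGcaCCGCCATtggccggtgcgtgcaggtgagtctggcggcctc
ZNF331: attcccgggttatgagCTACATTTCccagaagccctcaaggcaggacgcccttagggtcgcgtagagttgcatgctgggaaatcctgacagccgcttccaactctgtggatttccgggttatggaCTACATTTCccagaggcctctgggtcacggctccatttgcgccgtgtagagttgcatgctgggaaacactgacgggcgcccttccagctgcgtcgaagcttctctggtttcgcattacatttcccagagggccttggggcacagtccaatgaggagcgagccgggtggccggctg
ZNF224: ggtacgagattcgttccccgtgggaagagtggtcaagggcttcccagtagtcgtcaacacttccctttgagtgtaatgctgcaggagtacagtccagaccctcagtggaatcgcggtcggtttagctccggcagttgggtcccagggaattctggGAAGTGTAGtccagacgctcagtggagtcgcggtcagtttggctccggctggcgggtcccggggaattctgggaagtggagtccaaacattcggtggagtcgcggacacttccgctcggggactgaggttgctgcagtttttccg

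The 4 windows hold different letters for these motifs. The ZNF551 window holds the ETS motif once, on the other strand, close to the start. The ZNF544 window holds the ETS motif and, next to it, the YY1 motif. The ZNF331 window holds the CTACANTTC element as 2 copies, and the ZNF224 window holds it once on the other strand. Promoters of RefSeq were found for 140 of the 154 members. A single start was taken per gene, and whether A549 cells use it was not tested. The ZNF331 and ZNF544 windows lie within the gene coordinates given below, past the gene start. The ETS letters stood in 63 of these 140 promoters (45.0%), against 35.9% of 181 promoters of ZNF genes on other chromosomes and 14.4% of 15301 promoters of protein-coding genes. The ZNF genes of other chromosomes had at least 90 counts, as the members did. No count minimum was set for the 15301, which include genes with few or no counts, so that set is not matched for expression. The CTACANTTC element stood in 22 of 140 (15.7%), against 8.29% and 1.71% of the same sets. The SP motif GGGCGG was found in 56.4% of members, 64.1% of other ZNF genes and 59.3% of coding genes, and the YY1 motif in 10.7%, 9.94% and 7.75%. The CRE motif TGACGTCA was found in 4.29%, 3.87% and 2.65%, and the NRF1 motif CGCATGCGC in 2.86%, 6.08% and 2.73%. All motifs were sought on both strands and as these letters alone, and overlaps were allowed. Members with the ETS letters had a median log2 fold change of 0.21 with DDP_apoEV against control (9 of 63 called higher), and members without them had 0.21 (12 of 77 called higher).

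The members are expressed at low levels and are spread unevenly over the chromosome. Levels between genes are given as deposited FPKM, which are scaled by gene length. The median of the members' mean FPKM over all libraries was 1.28, the lowest was 0.112 and 92 members reached 1. Genes less than 1 Mb apart were joined into clusters, p1 to p4 on the short arm and q1 to q5 on the long arm, on either side of the widest gap, 6.10 Mb, which holds the centromere. In clusters p2 (7.1 to 9.8 Mb), q1 (34.7 to 35 Mb), q3 (43.5 to 45.1 Mb) and q5 (55.5 to 58.5 Mb), 94 of 103 coding genes were members (91.3%). Clusters p3 (11.5 to 12.6 Mb), p4 (19.7 to 24.1 Mb) and q4 (51.6 to 53.6 Mb) had 33 members among 101 coding genes (32.7%). Cluster q2 (36.2 to 37.8 Mb) had 18 of 27 and p1 (2.8 to 2.9 Mb) had 3 of 5, and 6 members of 11 coding genes were scattered outside clusters.

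**Figure D1:**
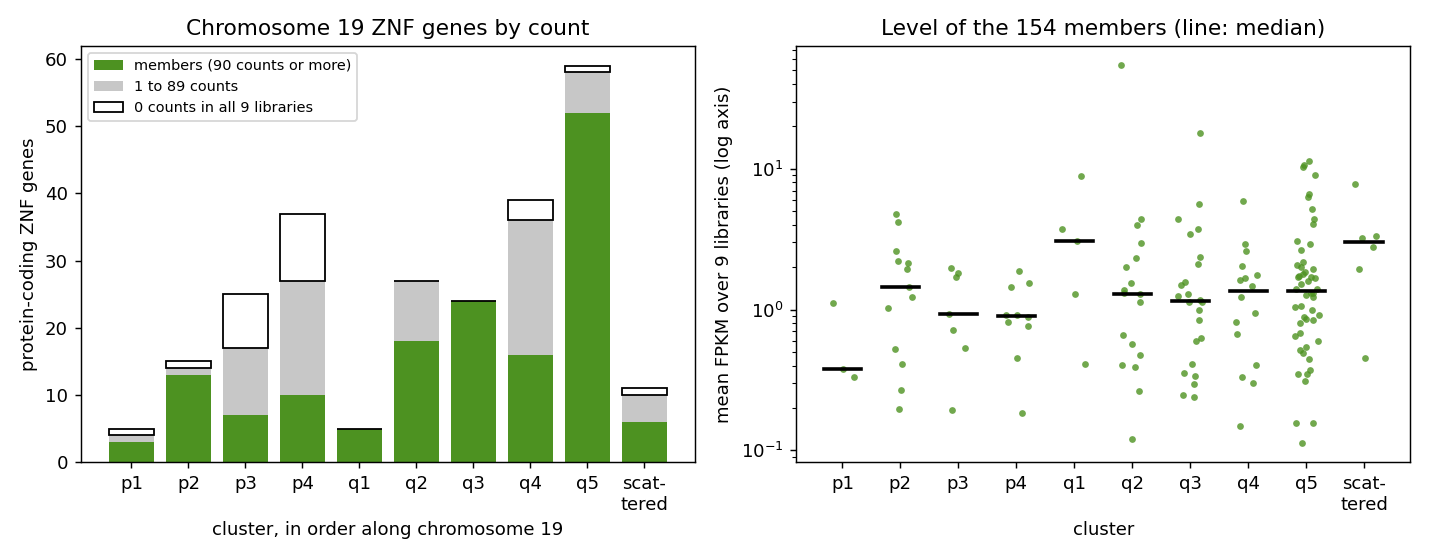
Left, protein-coding ZNF genes of each chromosome 19 cluster split into those with at least 90 counts, those with fewer and those at 0. Right, mean FPKM over 9 libraries of each member on a log axis, with the cluster median as a line. All 24 coding genes of q3 reached the minimum, against 10 of 37 in p4 and 7 of 25 in p3.

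Among the 93 coding genes below the minimum, 25 were at 0 in all libraries, and 21 of these lay in p3, p4 and q4. A count of 0 in all libraries allows up to 0.0221 CPM, which is 3 counts over the sum of all libraries and covers counting error only. In p4 the genes at 0 included ZNF91, known for silencing SVA elements, and ZNF93, known for silencing a set of LINE-1 elements. ZNF649 in q4, which also binds LINE-1 elements, had 5 counts in all, and ZNF382 in q2, known as a KRAB repressor silenced in several tumours, had 3. A count of 0 in these files need not mean silence, since EHMT2, a histone methyltransferase that most cells use, was also listed at 0. Next to the minimum stood ZNF418 with 98 counts, ZNF616 with 100 and ZNF221 with 111 on the inside, and ZNF490 with 89, ZNF568 with 82 and ZNF547 with 75 on the outside.

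The highest level was that of ZNF146 in q2 (OZF, chr19:36214602-36238771, plus strand, a protein made almost entirely of zinc fingers), at a mean of 54.8 FPKM. It was followed by ZNF428 in q3 at 18.1 FPKM and by 3 genes of q5, ZNF787 at 11.4, ZNF580 at 10.6 and ZNF524 at 10.3. These 5 genes encode proteins without a KRAB domain. Among clusters with at least 5 members the median level ran between 0.904 FPKM in p4 and 3.08 FPKM in q1.

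Total counts per library were 13750648 to 14766702 in STS_apoEV, 15896522 to 16473954 in DDP_apoEV and 14309043 to 15441944 in control. DDP_apoEV libraries were thus the deepest, and CPM values were scaled for depth. The members took 0.165% to 0.172% of the counts in STS_apoEV, 0.179% to 0.184% in DDP_apoEV and 0.161% to 0.170% in control. Their CPM summed to 1649, 1652 and 1713 in STS_apoEV libraries, to 1822, 1831 and 1876 in DDP_apoEV libraries and to 1679, 1703 and 1603 in control libraries. All 3 DDP_apoEV sums lay above all others, and the sums of STS_apoEV and control libraries overlapped. No member was at 0 in any library. In bulk RNA, fewer cells of a kind and less RNA per cell cannot be told apart.

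With DDP_apoEV, called members were nearly all higher than in control. Among the 154 members were 22 rises, 1 fall and 131 genes short of the threshold (edgeR's quasi-likelihood test, Benjamini-Hochberg adjusted p under 0.05 over 16480 genes, no fold minimum). The called share was 14.9% of the members, against 16.6% of all genes tested, so it lay near the background. By direction, 14.3% of members were called higher, against 7.55% of all genes, and 0.649% were called lower, against 9.02%. The members' median log2 fold change was 0.19, against −0.005 over all genes, and 115 of 154 were positive (74.7%), against 49.4% of all genes. The count of rises rested in part on single libraries: it was 12 without control replicate 3, 14 without each DDP_apoEV library in turn, and the total fell to 15 without control replicate 1. Libraries of the 2 groups did not overlap for 56 members (36.4%), against 32.6% of all genes.

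The rises with DDP_apoEV were 10 of 52 members in q5 (19.2%), 4 of 24 in q3 (16.7%), 3 of 18 in q2 (16.7%), 3 of 16 in q4 (18.8%) and 2 of 10 in p4 (20%), beside 7.55% of all genes. Among these clusters the numbers followed cluster size. By edgeR and by DESeq2, 0 members rose of 13 in p2, 7 in p3, 5 in q1, 3 in p1 and 6 scattered. At an unadjusted p under 0.05 in edgeR, 2 were higher in p2 and 0 in the others. ZNF350 in q4 (ZBRK1, chr19:51964340-51986856 in hg38, minus strand), a KRAB repressor known to work with BRCA1, had the largest rise. It stood at 7.93, 5.0 and 6.15 CPM in DDP_apoEV, against 2.10, 3.87 and 1.95 CPM in control. Every DDP_apoEV library lay above every control library, and the log2 fold change was 1.27 ± 0.25 (SE, n = 3 libraries each, adjusted p = 2.34e-04, edgeR). ZNF229 in q3 had 6.55, 4.88 and 4.93 CPM in DDP_apoEV, against 3.15, 2.14 and 2.30 CPM in control (log2 fold change 1.10 ± 0.27, adjusted p = 0.00346, edgeR). The 2 sets of values do not overlap, with control replicate 1 the highest of its group.

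In q5, the last cluster before the end of the long arm, ZNF548 had 5.85, 6.89 and 6.85 CPM in DDP_apoEV, against 3.34, 4.35 and 2.44 CPM in control (log2 fold change 0.95 ± 0.21, adjusted p = 0.00128, edgeR). ZNF304, a KRAB zinc finger protein, had 3.59, 5.0 and 2.95 CPM in DDP_apoEV, against 1.97, 1.93 and 1.74 CPM in control. Its rise of 1.03 ± 0.29 on the log2 scale (adjusted p = 0.0105, edgeR) was 0.79 with an adjusted p of 0.11 without DDP_apoEV replicate 2. ZNF543 rose by 1.0 and ZNF530 by 0.71 on the log2 scale (adjusted p = 0.0166 and 0.00998, edgeR), and both calls were lost without control replicate 2, where the adjusted p was 0.0702 for ZNF543 and 0.0962 for ZNF530, and without DDP_apoEV replicate 1 or 2, where it was 0.0746 and 0.0992 for ZNF543 and 0.0673 and 0.0577 for ZNF530. All DDP_apoEV libraries lay above all control libraries for each of these 4 genes.

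ZNF675 in p4 (TIZ), known to bind TRAF6 and to dampen NF-kB signalling, had 9.63, 7.87 and 9.22 CPM in DDP_apoEV, against 5.90, 5.25 and 5.57 CPM in control. The groups were well apart, with a log2 fold change of 0.67 ± 0.18 (adjusted p = 0.00659, edgeR). In q2, ZNF383 had 11.6, 11.8 and 10.7 CPM in DDP_apoEV, against 6.82, 7.73 and 8.15 CPM in control (log2 fold change 0.59 ± 0.15, adjusted p = 0.00425, edgeR). ZNF155 in q3 was the weakest of the named rises (0.88 on the log2 scale, adjusted p = 0.0469, edgeR). Its adjusted p ran between 0.0446 and 0.234 over the alternatives, and the call was lost without control replicate 1, 2 or 3, DDP_apoEV replicate 1 or 2, or STS_apoEV replicate 1, with adjusted p of 0.0662, 0.151, 0.119, 0.0686, 0.234 and 0.0513. The single fall was that of ZNF579 in q5, whose protein has no KRAB domain, with 19.3, 22.7 and 17 CPM in DDP_apoEV, against 26.1, 25.7 and 24.2 CPM in control (log2 fold change −0.36 ± 0.11, adjusted p = 0.0238, edgeR). It lost the call without control replicate 1 or 2 (adjusted p = 0.0835 and 0.0682) and without DDP_apoEV replicate 1 or 3 (0.0855 and 0.168).

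ZNF genes of other chromosomes and other genes of chromosome 19 give the setting for these counts. With DDP_apoEV, 5 of 217 ZNF-number genes on other chromosomes were called higher and 14 lower, with a median log2 fold change of −0.04. Of 726 other protein-coding genes on chromosome 19, 58 were called higher and 67 lower, with a median of −0.02. The difference between these sets and the members was not tested.

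**Figure D2:**
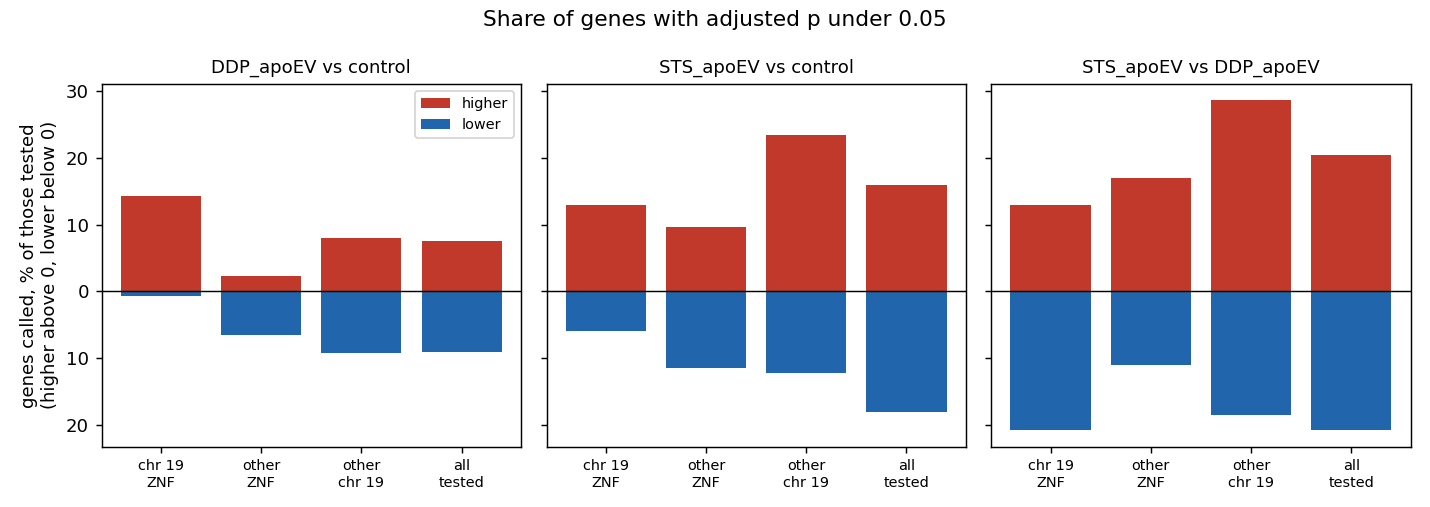
Percentage of tested genes called higher (above 0) or lower (below 0) at an adjusted p under 0.05 in each comparison, for the members, ZNF-number genes of other chromosomes, other coding genes of chromosome 19 and all genes tested. With DDP_apoEV against control, 14.3% of members were higher and 0.649% lower, against 7.55% and 9.02% of all genes.

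With STS_apoEV the members moved in both directions. Among the 154 members were 20 rises against control, 9 falls and 125 genes short of the threshold (18.8% called, against 33.9% of all genes; 13.0% higher, against 15.9%; 5.84% lower, against 18.0%). The median log2 fold change was 0.11, against 0.002 over all genes, and 93 members were positive. Libraries did not overlap for 47 members (30.5%), against 43.9% of all genes. The rises numbered 13 without control replicate 1 and 13 without STS_apoEV replicate 1, where 19 members were called in all. ZNF-number genes of other chromosomes had 21 rises and 25 falls among 217 (median 0.03), and other coding genes of chromosome 19 had 170 rises and 89 falls among 726 (median 0.10).

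In q3, 4 of 24 members rose with STS_apoEV against control (16.7%, against 15.9% of all genes). Of these, ZNF224 (chr19:44094361-44109886, plus strand), a KRAB repressor known to bind the ALDOA promoter, had 26.4, 17.4 and 19.6 CPM in STS_apoEV, against 11.7, 11.8 and 9.89 CPM in control. Replicate 1 was the highest of the STS_apoEV libraries, all of which lay above control (log2 fold change 0.92 ± 0.15, adjusted p = 6.77e-06, edgeR). ZNF226, further along the cluster, had 26.8, 30.7 and 33.2 CPM in STS_apoEV, against 17.6, 21.5 and 19.2 CPM in control (log2 fold change 0.64 ± 0.11, adjusted p = 1.84e-05, edgeR). ZNF225 had 9.76, 9.68 and 10.7 CPM in STS_apoEV, against 6.16, 6.70 and 7.80 CPM in control. Its rise of 0.55 ± 0.17 on the log2 scale (adjusted p = 0.0110, edgeR) was 0.47 with an adjusted p of 0.0637 without control replicate 1. Along the cluster, ZNF234 lies between ZNF225 and ZNF226 and was not called (−0.02, adjusted p = 0.950, edgeR), nor were ZNF223 (−0.17, adjusted p = 0.835) and ZNF284 (0.12, adjusted p = 0.871) before ZNF224 or ZNF227 (0.30, adjusted p = 0.127) after ZNF226. ZNF224 and ZNF225 both overlap exons of AC021092.1 on the other strand.

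In q5, ZNF581 had 19.3, 21.5 and 21.6 CPM in STS_apoEV, against 11.3, 10.9 and 9.47 CPM in control. The values lay far apart, and the log2 fold change was 0.98 ± 0.13 (adjusted p = 1.09e-07, edgeR). ZNF581 shares exon sequence with its neighbours ZNF580 and CCDC106 on the same strand, and 16.1% of the 50-base words of its transcript also occur in ZNF580, so their reads cannot be fully told apart. ZNF837 had 6.21, 5.96 and 4.21 CPM in STS_apoEV, against 3.34, 2.49 and 2.16 CPM in control (log2 fold change 1.03 ± 0.27, adjusted p = 0.00271, edgeR). ZNF554 in p1 rose by 1.05 on the log2 scale (adjusted p = 0.00923, edgeR), with an adjusted p of 0.0617 without STS_apoEV replicate 1. In p3, ZNF791 had 13.9, 14.8 and 15.1 CPM in STS_apoEV, against 10.8, 10.2 and 9.82 CPM in control (log2 fold change 0.51 ± 0.13, adjusted p = 0.00288, edgeR). It was the single called member of p3 in any comparison.

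The falls with STS_apoEV were led by ZNF331 in q4 (chr19:53519527-53580269, plus strand), an imprinted gene of the KRAB class known to be methylated in several tumours. It had 12.3, 13.5 and 16.1 CPM in STS_apoEV, against 25.7, 26.9 and 24.5 CPM in control. No STS_apoEV library came near the control range, and the log2 fold change was −0.88 ± 0.11 (adjusted p = 7.24e-08, edgeR). ZNF146, the most abundant member, had 175, 173 and 201 CPM in STS_apoEV, against 252, 246 and 217 CPM in control (log2 fold change −0.39 ± 0.08, adjusted p = 1.15e-04, edgeR). ZNF507, a gene outside the clusters, had 75.7, 65.4 and 78.5 CPM in STS_apoEV, against 101, 112 and 87.0 CPM in control (log2 fold change −0.45 ± 0.09, adjusted p = 8.64e-05, edgeR). For both the 2 groups did not overlap.

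The other named falls with STS_apoEV were less firm. ZNF772 fell by 0.80 on the log2 scale (adjusted p = 0.0326, edgeR), with 0.166 without control replicate 1 and 0.0654 and 0.236 without STS_apoEV replicates 1 and 2. ZNF43 fell by 0.53 (adjusted p = 0.0261, edgeR), with 0.0956 without control replicate 2 and 0.224 without STS_apoEV replicate 1. ZNF765 fell by 0.47 (adjusted p = 0.0187, edgeR), with 0.195 without control replicate 2, 0.0571 without STS_apoEV replicate 2 and 0.0732 without STS_apoEV replicate 3. ZNF121 fell by 0.34 (adjusted p = 0.0335, edgeR), with 0.169 and 0.105 without control replicates 1 and 2 and 0.208 and 0.0687 without STS_apoEV replicates 1 and 3.

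The same 3 control libraries serve both contrasts with control, so values for the 2 vesicles are given side by side. ZNF548 was higher than control with both, by 0.80 on the log2 scale with STS_apoEV and by 0.95 with DDP_apoEV. ZNF383 was higher by 0.42 with STS_apoEV and by 0.59 with DDP_apoEV, ZNF160 by 0.50 and 0.40, and ZNF875 by 0.34 and 0.32. The STS_apoEV call of ZNF383 (adjusted p = 0.0272, edgeR) was lost without STS_apoEV replicate 1 (0.101) or control replicate 1 or 2 (0.129 and 0.0577). ZNF160 and ZNF875 were chosen after their values were seen.

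ZNF551 (chr19:57681969-57717301, plus strand) and ZNF544 (chr19:58228594-58277495, plus strand), both in q5 and both KRAB zinc finger genes, were the members called in opposite directions with the 2 kinds of vesicle. ZNF551 had 5.02, 4.53 and 5.40 CPM in STS_apoEV, 10.7, 12.5 and 15.6 CPM in DDP_apoEV, and 7.74, 7.87 and 7.38 CPM in control. The 3 groups did not overlap, with control in the middle. The log2 fold change against control was −0.62 ± 0.18 with STS_apoEV and 0.75 ± 0.16 with DDP_apoEV (adjusted p = 0.00539 and 7.13e-04, edgeR), and the difference between the vesicles, STS_apoEV against DDP_apoEV, was −1.38 ± 0.17 (adjusted p = 1.86e-08). ZNF544 had 4.67, 7.11 and 5.12 CPM in STS_apoEV, 13.4, 12.4 and 14 CPM in DDP_apoEV, and 9.51, 9.67 and 7.38 CPM in control. Here too the groups were in separate ranges, but the lowest control library came close to the highest STS_apoEV library. Its log2 fold changes were −0.65 ± 0.17 and 0.58 ± 0.16 against control (adjusted p = 0.00297 and 0.00883, edgeR) and −1.23 ± 0.17 between the vesicles (adjusted p = 1.44e-07). Without control replicate 3 the rise of ZNF544 with DDP_apoEV was 0.47 with an adjusted p of 0.0804. For both genes the difference between the vesicles nearly follows from the 2 opposite calls and is no separate support. The share of all genes called in opposite directions is not given here. ZNF551 overlaps exons of AC003006.1 on the same strand, and ZNF544 overlaps AC020915.3 and AC020915.5, with which reads may be shared.

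**Figure D3:**
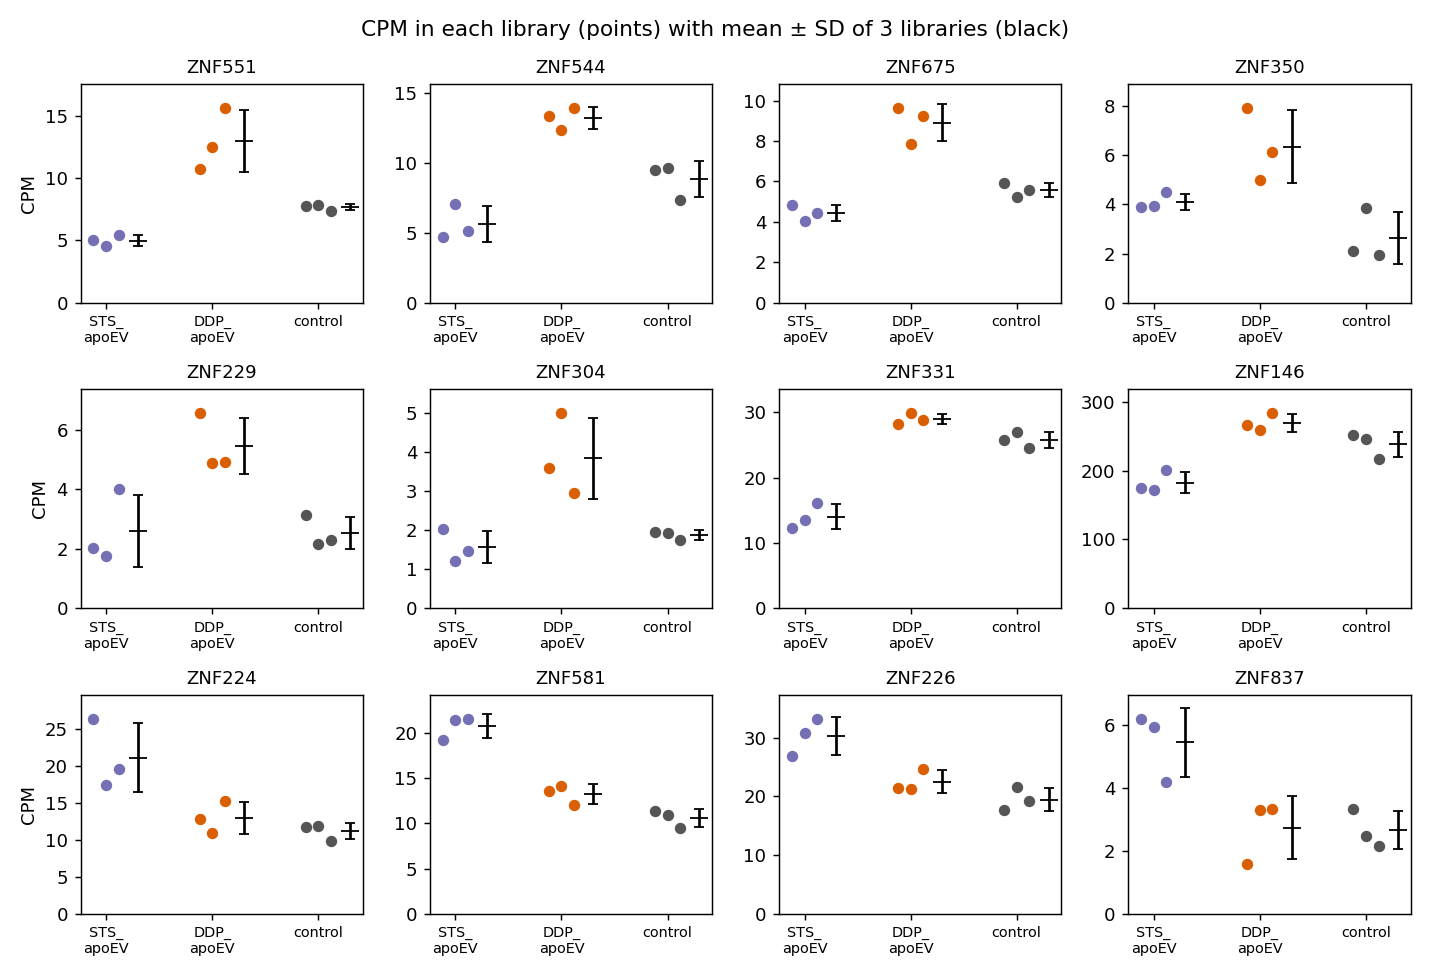
CPM of 12 members in each library of STS_apoEV, DDP_apoEV and control (points), with the mean and SD of 3 libraries in black and axes starting at 0. ZNF551, ZNF544 and ZNF675 are lowest in STS_apoEV and highest in DDP_apoEV, ZNF331 and ZNF146 have STS_apoEV values below all others, and ZNF224, ZNF581, ZNF226 and ZNF837 are highest in STS_apoEV.

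Set against each other, the 2 vesicle groups differed in 52 members. With STS_apoEV against DDP_apoEV, 20 members were higher, 32 lower and 102 not called (33.8% called, against 41.1% of all genes; 13.0% higher, against 20.4%; 20.8% lower, against 20.7%). The median log2 fold change was −0.11, against 0.02 over all genes, and 62 of 154 members were positive (40.3%). Libraries did not overlap for 71 members (46.1%), against 48.3% of all genes. Without STS_apoEV replicate 1, 13 members were higher. Over all libraries, ZNF genes of other chromosomes had 37 higher and 24 lower among 217 (median 0.05), and other coding genes of chromosome 19 had 208 and 134 among 726 (median 0.10).

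Members lower in STS_apoEV than in DDP_apoEV numbered 10 of 52 in q5 (19.2%), 6 of 16 in q4 (37.5%) and 4 of 18 in q2 (22.2%). They were 3 of 10 in p4 (30%), 3 of 24 in q3 (12.5%) and 2 of 13 in p2 (15.4%). Cluster q1 had 1 of 5, p1 had 1 of 3, and 2 of 6 scattered members were lower. Over all genes the share was 20.7%. The shares in q5 and q2 are near that background, and those of q3 and p2 lie below it. Those of q4 and p4 rest on few genes. ZNF331 was the clearest in q4, with the STS_apoEV values above against 28.2, 29.8 and 28.8 CPM in DDP_apoEV (log2 fold change −1.05 ± 0.11, adjusted p = 8.50e-10, edgeR). ZNF675 had 4.81, 4.06 and 4.42 CPM in STS_apoEV, against 9.63, 7.87 and 9.22 CPM in DDP_apoEV (log2 fold change −1.01 ± 0.18, adjusted p = 2.47e-05, edgeR), and it was the clearest in p4. ZNF146 led q2, with 266, 259 and 284 CPM in DDP_apoEV beside its STS_apoEV values of 173 to 201 CPM (log2 fold change −0.56 ± 0.08, adjusted p = 1.52e-07, edgeR). In each of the 3 the libraries of the groups did not overlap.

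In q5, ZNF304 had 2.02, 1.22 and 1.47 CPM in STS_apoEV, against 3.59, 5.0 and 2.95 CPM in DDP_apoEV (log2 fold change −1.29 ± 0.30, adjusted p = 5.38e-04, edgeR). In q3, ZNF229 had 2.02, 1.76 and 4.0 CPM in STS_apoEV, with replicate 3 standing apart, against 4.88 to 6.55 CPM in DDP_apoEV (log2 fold change −1.07 ± 0.27, adjusted p = 0.00160, edgeR). ZNF573 in q2 had 1.12, 1.02 and 1.26 CPM in STS_apoEV, against 1.64, 3.17 and 2.75 CPM in DDP_apoEV (log2 fold change −1.15 ± 0.34, adjusted p = 0.00584, edgeR). ZNF418, the member with the fewest counts, was lower by −1.26 on the log2 scale at an adjusted p of 0.0461, and the call was lost when any 1 of the 9 libraries was left out (adjusted p between 0.0549 and 0.120). ZNF274, known for binding the ends of other zinc finger genes and recruiting TRIM28 and SETDB1 there, had 12.7, 12 and 12.1 CPM in STS_apoEV, against 16.4, 17.9 and 14.3 CPM in DDP_apoEV. Its difference of −0.40 ± 0.13 (adjusted p = 0.0151, edgeR) was −0.33 with an adjusted p of 0.0852 without DDP_apoEV replicate 2.

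Of the members higher with STS_apoEV than with DDP_apoEV, ZNF414 in p2 had 8.23, 10.7 and 6.59 CPM in STS_apoEV, against 3.53, 5.0 and 4.55 CPM in DDP_apoEV (log2 fold change 0.96 ± 0.21, adjusted p = 2.13e-04, edgeR). ZNF428 in q3 had 37.2, 37.1 and 32.3 CPM in STS_apoEV, against 24.1, 25.6 and 22.9 CPM in DDP_apoEV (log2 fold change 0.55 ± 0.10, adjusted p = 2.03e-05, edgeR). ZNF837 (1.0), ZNF581 (0.64) and ZNF580 (0.39) of q5 were higher as well (adjusted p = 0.00273, 6.04e-05 and 0.00130, edgeR). ZNF224 of q3 was higher by 0.70 ± 0.14, with 26.4, 17.4 and 19.6 CPM in STS_apoEV against 12.8, 10.9 and 15.2 CPM in DDP_apoEV (adjusted p = 1.75e-04, edgeR). ZNF181 in q1 had 23.8, 22.3 and 23.0 CPM in STS_apoEV, against 17.1, 16.3 and 17.2 CPM in DDP_apoEV (log2 fold change 0.45 ± 0.11, adjusted p = 0.00104, edgeR). In all of these genes every STS_apoEV library lay above every DDP_apoEV library.

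**Figure D4:**
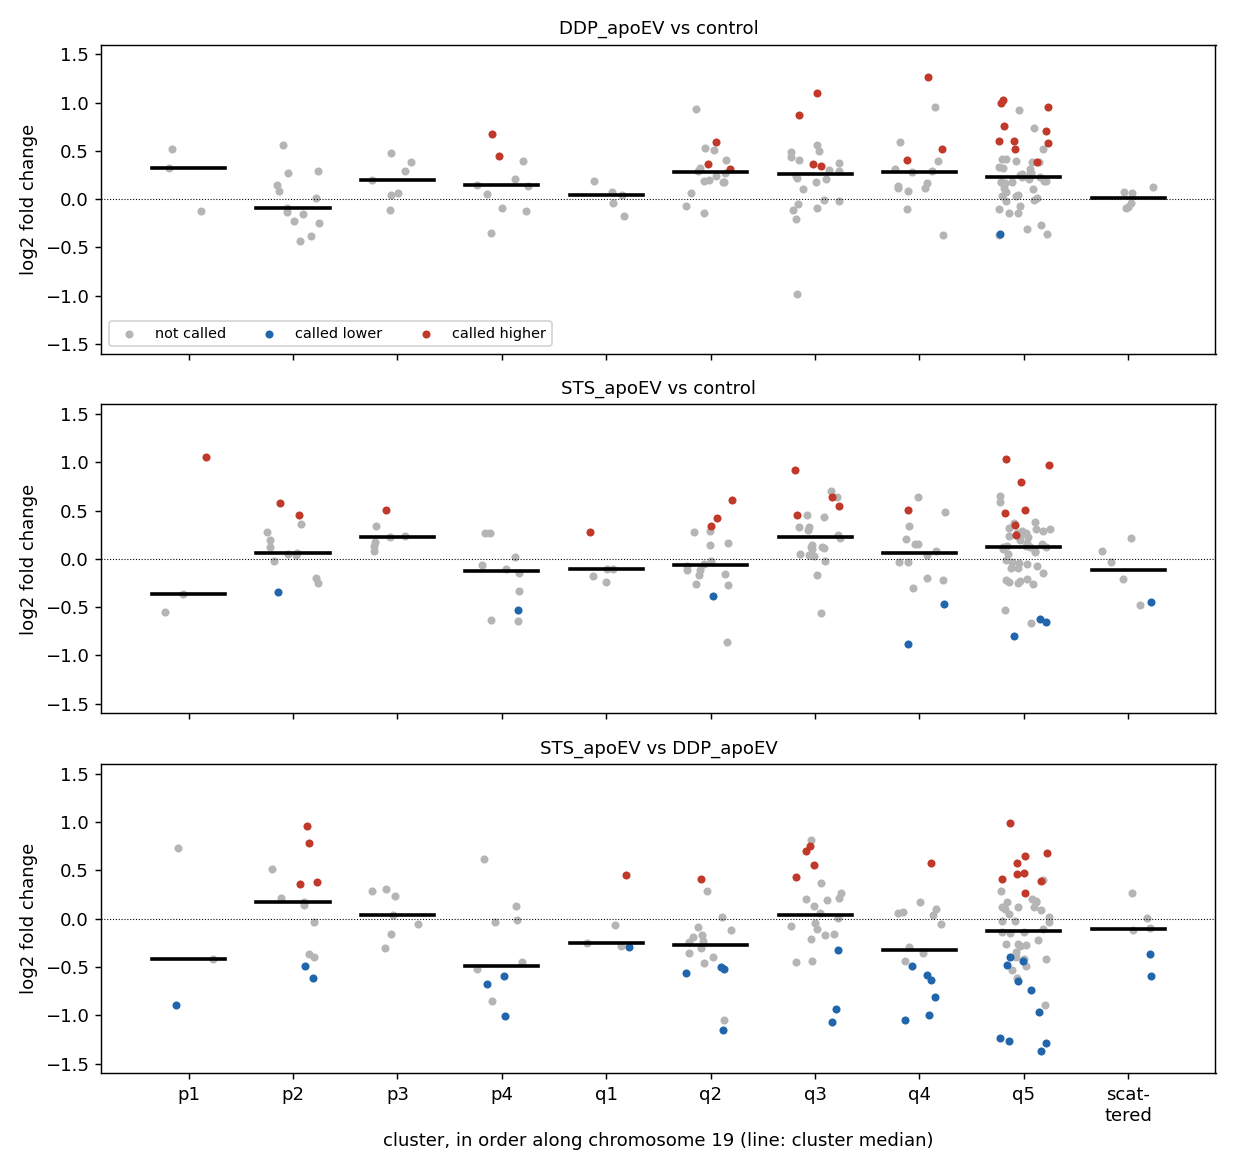
Log2 fold change of each member by cluster, in order along the chromosome, for the 3 comparisons, coloured by call, with the cluster median as a line. With DDP_apoEV against control the medians of q2 (0.28), q3 (0.26), q4 (0.28) and q5 (0.23) lie above 0 and that of p2 (−0.10) below it.

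By cluster, the medians with DDP_apoEV against control were 0.28 in q2 and in q4, 0.26 in q3, 0.23 in q5, 0.20 in p3, 0.14 in p4, 0.04 in q1 and −0.10 in p2, where edgeR and DESeq2 called 0 of 13 members and 2 were higher at an unadjusted p under 0.05. With STS_apoEV against control they were 0.23 in q3, 0.22 in p3, 0.13 in q5, 0.06 in q4 and in p2, −0.06 in q2, −0.10 in q1 and −0.13 in p4. Cluster p3 had all 7 members on the positive side with STS_apoEV, and 1 of them was called. Between the vesicles, p4 had the lowest median of these clusters at −0.49, followed by −0.32 in q4, −0.27 in q2, −0.25 in q1 and −0.12 in q5, and p2 (0.17), q3 (0.04) and p3 (0.03) were positive. The differences between clusters were not tested, and neighbours within a cluster can share sequence and regulatory elements.

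The calls were also counted by GC content of the transcript. The longest coding transcript of 31 members had over 50% GC, among them ZNF787 (70.3%), ZNF358 (69.1%) and ZNF579 (65.9%), whose proteins have no KRAB domain. With STS_apoEV against control, 9 of the 31 were called higher and 0 lower (median 0.23), while 11 of the 123 others were higher and 9 lower (median 0.06). The 9 are 29% of the 31, against 21.3% called higher of the 5910 protein-coding genes over 50% GC. Of the 123 others, 8.94% were higher and 7.32% lower, against 15.2% and 26.8% of the 6874 protein-coding genes at or below 50%. With DDP_apoEV against control, 2 of the 31 were higher and 1 lower (median 0.04), against 20 higher and 0 lower of the 123 (median 0.23). The 20 are 16.3%, against 8.35% called higher and 11.4% lower of protein-coding genes at or below 50% GC, and over 50% GC 6.45% of the 31 were higher and 3.23% lower, against 9.73% and 9.42% of protein-coding genes. The zeros here are edgeR counts, DESeq2 gave 0 in both cases as well, and at an unadjusted p under 0.05 edgeR had 1 of the 31 lower with STS_apoEV and 2 of the 123 lower with DDP_apoEV. Between the vesicles, STS_apoEV against DDP_apoEV, 11 of the 31 were higher and 3 lower (median 0.17), against 9 higher and 29 lower of the 123 (median −0.22). Over 50% GC, 35.5% of the members were thus higher, against 25.9% of protein-coding genes. At or below 50%, 23.6% of the members were lower, no more than the 28.4% of protein-coding genes there, and 7.32% were higher, against 20.1%. Across the 154 members, Spearman's rho between GC content and log2 fold change was −0.18, 0.11 and 0.21 in the 3 comparisons, as a description over genes that share libraries and ancestry. Over 12784 protein-coding genes rho was 0.04, 0.16 and 0.11. The sign was that of the members in both comparisons with STS_apoEV and the opposite in DDP_apoEV against control. The part of GC content in the members' values was not tested.

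**Figure D5:**
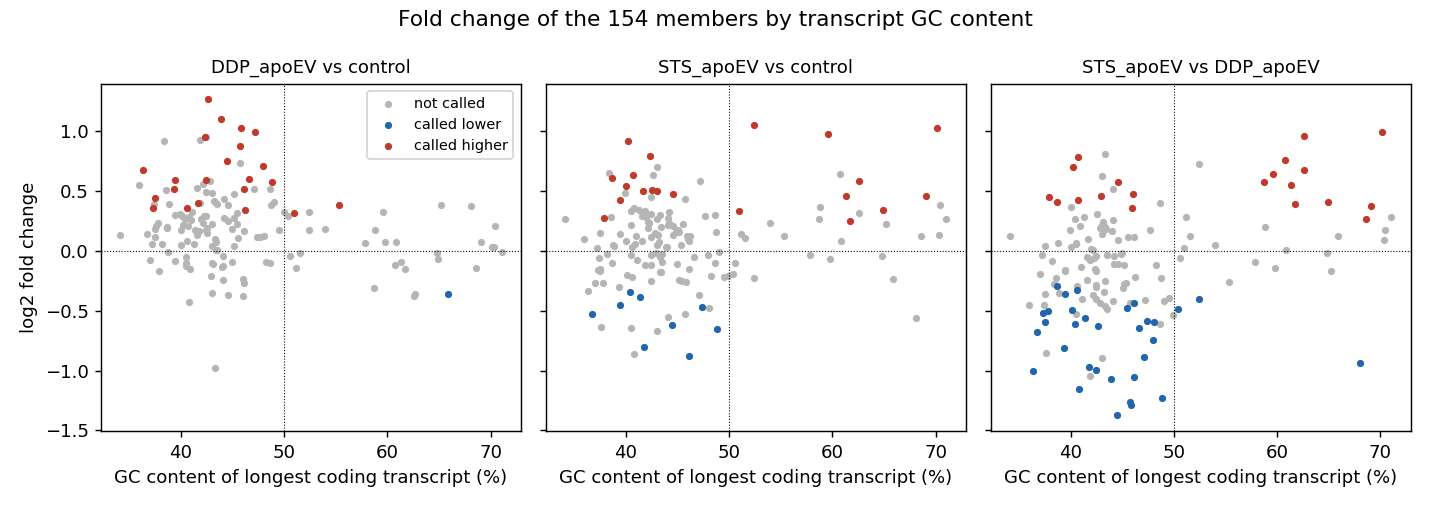
Log2 fold change of each member against the GC content of its longest coding transcript (%), coloured by call, with dotted lines at 0 and at 50% GC. Above 50% GC, 11 of 31 members are called higher and 3 lower in STS_apoEV against DDP_apoEV, while 29 of the 123 members at or below 50% are called lower (23.6%, against 28.4% of protein-coding genes in that range).

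A heterochromatin core list held TRIM28 and SETDB1, through which KRAB proteins act, beside ATF7IP, heterochromatin proteins and other H3K9 methyltransferases. Of its 9 tested genes, 6 fell with STS_apoEV against control (66.7%, against 18.0% of all genes) and 0 rose (median −0.32). TRIM28 and SETDB1 themselves were not called in that comparison. DESeq2 called 5 falls and 0 rises, and 0 rose at an unadjusted p under 0.05. The falls were SUV39H2 (−0.65), CBX1 (−0.57), SUV39H1 (−0.49), ATF7IP (−0.33), CBX5 (−0.32) and CBX3 (−0.22), which encode H3K9 methyltransferases, heterochromatin proteins and the partner of SETDB1. The ATF7IP and CBX3 calls were the weakest of these and each was lost on leaving out single libraries, with adjusted p up to 0.180 (without STS_apoEV replicate 2) for ATF7IP and 0.107 (without STS_apoEV replicate 1) for CBX3. SETDB1 itself had 26.4, 24.4 and 22.3 CPM in STS_apoEV, against 23.0, 25.1 and 24.8 CPM in control, with overlapping groups. TRIM28, the common corepressor, had 207, 219 and 195 CPM in STS_apoEV, 275, 279 and 252 CPM in DDP_apoEV, and 251, 206 and 233 CPM in control. It rose slightly with DDP_apoEV (log2 fold change 0.23 ± 0.08, adjusted p = 0.0370, edgeR), did not pass the test with STS_apoEV (−0.15 ± 0.08, adjusted p = 0.136), and was lower in STS_apoEV than in DDP_apoEV (−0.37 ± 0.08, adjusted p = 1.25e-04). The TRIM28 rise did not hold without DDP_apoEV replicate 1 or 2 (adjusted p = 0.122 and 0.136), without control replicate 2 or 3 (0.270 and 0.0826) or with a replicate block (0.0588). ATF7IP was the other core gene to rise with DDP_apoEV (0.31 ± 0.11, adjusted p = 0.0459, edgeR), a call that failed without any 1 control library, without DDP_apoEV replicate 2 or 3 or STS_apoEV replicate 3 (adjusted p between 0.0535 and 0.239) and with a replicate block (0.0524).

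The lists for other silencing complexes and for DNA methylation are given by the same counts, beside the 18.0% of all genes that fell with STS_apoEV. Of 13 NuRD genes, 5 fell with STS_apoEV against control (38.5%, median −0.11), and 1, CHD3, fell with DDP_apoEV (−0.31, adjusted p = 0.00334, edgeR). Of 4 HUSH genes, 1 (25%), TASOR, fell with STS_apoEV (−0.45, adjusted p = 3.92e-05, edgeR) and with DDP_apoEV 0 were called by edgeR or DESeq2 or at an unadjusted p under 0.05. Of 8 genes of DNA methylation, 5 fell with STS_apoEV (62.5%), led by UHRF1 (−1.27) and DNMT1 (−0.73). This list also holds TET1, TET2 and TET3, which act against DNA methylation, so it is not a list of silencing factors alone. TET2 was one of the falls (−0.45, adjusted p = 0.00736, edgeR), with 0.0977 without STS_apoEV replicate 2. UHRF1, which guides DNMT1 to newly made DNA, had 16, 15.3 and 15.8 CPM in STS_apoEV, 49.6, 48.5 and 45.5 CPM in DDP_apoEV, and 40.3, 35.4 and 37.5 CPM in control, and it rose with DDP_apoEV (0.34, adjusted p = 0.00639, edgeR). DNMT3B, a de novo methyltransferase, fell with DDP_apoEV by 0.58 on the log2 scale (adjusted p = 0.00693, edgeR), with 0.0589 without DDP_apoEV replicate 2. Relations between these genes and the members were not tested.

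Zinc finger genes of chromosome 19 with other names were looked at as well, and 7 of the 14 found in the table were tested. With DDP_apoEV against control, ZFP28 (0.72, adjusted p = 0.00532, edgeR) and ZFP82 (1.22, adjusted p = 0.0188) rose. ZFP82 had 0.558, 0.203 and 0.982 CPM in STS_apoEV, 2.27, 3.23 and 2.75 CPM in DDP_apoEV, and 1.05, 1.10 and 1.39 CPM in control, so the 3 groups did not overlap, and its adjusted p was 0.0931 without DDP_apoEV replicate 2 and 0.0704 and 0.0620 without control replicates 1 and 2. With STS_apoEV against control, MZF1 rose (0.57, adjusted p = 2.82e-06, edgeR) and ZSCAN5A fell (−0.98, adjusted p = 1.55e-04). PEG3, ZIM2, ZIM3 and ZSCAN4 were at 0 in all libraries.

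Sequence shared with other genes limits some of these counts. Exons of 83 members overlap those of another gene, for 49 on the other strand and for 46 on the same strand. The labels do not state that the library kit kept the strand, so reads of antisense partners cannot be told apart from those of the members. For 31 members over 10% of the 50-base words of the longest coding transcript also occur in a transcript of another gene, with a median of 1.17% over all members. How reads that match several genes were counted is not given in the sources used, so values of such pairs as ZNF417 with ZNF587 and ZNF443 with ZNF799 are uncertain. Among the 71 members with no exon overlap, a choice made after seeing the data, 13 rose and 1 fell with DDP_apoEV, 9 rose and 4 fell with STS_apoEV (median 0.04), and 8 were higher and 17 lower in STS_apoEV against DDP_apoEV. Of all genes, 7.55% rose and 9.02% fell with DDP_apoEV, and 15.9% rose and 18.0% fell with STS_apoEV. Between the vesicles 20.4% of all genes were higher and 20.7% lower.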

How the data were processed

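Per the labels' protocols, libraries were prepared from TRIzol RNA using a NEBNext Ultra kit, which is not stated to keep the strand. Build hg38, per the submitters' processing notes, was used. They also list, without roles, featureCounts 1.5.0-p3 (Subread), limma, StringTie 1.3.3b and HISAT2 2.0.5. The authors deposited raw read counts per gene and FPKM values for 62257 gene rows, of which 705 without an annotated ID (0.313% to 0.357% of counts) were left out. Gene length in bases stood beside the FPKM values in the deposited table.

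The members and gene lists were chosen with earlier results of these data known. Gene types, transcripts and exon overlaps came from GENCODE v29 and promoters from RefSeq (GRCh38.p14). For 67 of 154 members start and end equalled those of GENCODE v29, which may not be the release the authors used. Readthrough symbols, 4 in number, were left out of the members.

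Counts were tested with edgeR 4.0.16 (R 4.3.3, TMM, default filter, robust quasi-likelihood, 1 fit over 9 libraries and 16480 genes, no covariates), with Benjamini-Hochberg adjustment over all genes. The common biological coefficient of variation was 0.0887. SE values are the log2 fold change divided by the square root of F. CPM use TMM-scaled library sizes. The fit was tested on simulated counts. Libraries of a group correlated at 0.984 or above, and the first component held 41.7% of the variance. Replicate numbers did not pair libraries. Alternatives were median-of-ratios and upper-quartile scaling, other filters, DESeq2 1.42.0, limma 3.58.1 on log2(FPKM + 1) and log2(FPKM + 0.1), a replicate block, the 6 libraries compared alone, each library left out, other count minimums and other gap sizes. Genes were named by rule (42 members): per comparison, among called members whose libraries did not overlap, the 8 largest rises and falls and the smallest p of each cluster, plus the 5 highest by FPKM and fixed genes. Other genes serve as examples, picked with their values known. No protein sequence was used here.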

Additional observations from a re-analysis of the deposited data

Results flagged for a closer look

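Both kinds of vesicle were set against the same control, and 2 members were called in opposite directions. The difference between the vesicles passed the test as well (edgeR, adjusted over all genes). Since that difference nearly follows from 2 opposite calls in the same fit, it is no separate support. The share of all genes called in opposite directions is not given here. ZNF551 differed by −1.38 on the log2 scale in STS_apoEV against DDP_apoEV (adjusted p = 1.86e-08), being below control with STS_apoEV and above it with DDP_apoEV in all 3 libraries each. ZNF544 differed by −1.23 (adjusted p = 1.44e-07) in the same way. Both lie in q5.

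A readthrough gene left out of the members carried signal, and it counted among the other protein-coding genes of chromosome 19. ZNF8-ERVK3-1, which joins ZNF8 to a neighbouring endogenous retrovirus gene, had 249 counts in all, with 32, 25 and 31 in STS_apoEV libraries, 37, 33 and 38 in DDP_apoEV libraries and 13, 24 and 16 in control libraries. Of the transcript of ZNF8, 22.2% of the 50-base words also occur in other genes, so these counts may hold reads of ZNF8. Whether they do was not tested.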

How the results depend on the processing

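Counts of called members kept within 1.5 times of the reported ones under both other scalings, the stricter filter and the replicate block, which gave 20 higher and 1 lower with DDP_apoEV, 18 and 9 with STS_apoEV, and 19 and 30 between the vesicles. Replicate numbers share only a number: same-numbered libraries correlated at −0.0979 to 0.0492. With DDP_apoEV, limma on log2(FPKM + 1), restricted to genes averaging 1 FPKM, called 8 (8 higher, 0 lower, median 0.11) of 92 members. In the same comparison log2(FPKM + 0.1) called 7 (7 higher, 0 lower), and log2(FPKM + 1) without filter called 1 (1 higher, 0 lower, median 0.0996). DESeq2 called 17 with DDP_apoEV (17 higher, 0 lower). With STS_apoEV the same limma settings called 18 (12 higher), 18 (12 higher) and 9 (6 higher, 3 lower; median 0.0405), and DESeq2 called 19 (13 higher). Between the vesicles the limma settings called 32 (13 higher, 19 lower, median −0.0315), 31 (13 and 18, median −0.0416) and 23 (8 and 15). DESeq2 called 36 there (10 higher, 26 lower), and edgeR with no filter called 43 (13 higher, 30 lower). The log2(FPKM + pseudocount) scale shrinks changes of low genes, and the filtered settings test fewer members. Log2(FPKM + 0.1) kept a median of 0.176 with DDP_apoEV, and the unfiltered setting tested all 154 members. Why fewer members were called was not tested. The share of all genes called under these settings is not given here. Among the 78 members with at least 900 counts, 14 were called with DDP_apoEV (13 higher) and 33 between the vesicles (19 lower). The 71 members with no exon overlap had 14 calls (13 higher) with DDP_apoEV, 13 (9 higher, 4 lower, median 0.0360) with STS_apoEV and 25 (8 and 17) between the vesicles. Of all genes in the same edgeR fit, 16.6%, 33.9% and 41.1% were called in these 3 comparisons. The q5 median between the vesicles turned to 0.00558 and 0.00888 in the 2 filtered limma settings (33 members); the cause was not tested.

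Leaving out 1 library gave 14 to 23 called members with DDP_apoEV (12 to 22 higher, 0 to 2 lower; median 0.165 to 0.218), 19 to 31 with STS_apoEV (13 to 21 and 6 to 10; 0.0761 to 0.115) and 37 to 50 between the vesicles (13 to 19 and 23 to 31; −0.142 to −0.0683). Without a library of the groups compared, 14 to 16 members were called with DDP_apoEV and 19 to 29 with STS_apoEV. Between the vesicles 37 to 47 were called. The share of all genes called in these refits is not given here. Of 630 refits of called named genes that left out a library, 91 lost the call, and of 651 under other settings 107 did. The 630 include refits without a library outside the comparison, which lost only calls of ZNF155, ZNF580 and ZNF418, so the share lost was larger among the rest. Low counts limit the members: the lowest count in a library was 3.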
